A study of Drosophila melanogaster with 4 samples.

Results

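The unplaced sequence U is the part of the Drosophila melanogaster release 5 assembly that joins scaffolds with no assigned chromosome. The enriched regions on U were taken from the combined list of a ChIP-seq study of H3K9me2, as all rows on U that were not named as depleted. There were 778 such regions among 5614 in the whole combined list. H3K9me2 is a dimethyl mark on the tail of histone H3. The data come from nuclei of wild-type Oregon-R larvae of the third instar, with 2 ChIP libraries made with a single antibody (H3K9me2 antibody2) and 2 input libraries of chromatin without immunoprecipitation. All 4 libraries share strain, genotype and stage, and per the labels each ChIP library was called against the input of its own number. No label states that the replicates are separate collections of larvae, and their spread may be technical only. Whole larvae hold many cell types, so the regions describe a mixture of them.

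In flies, H3K9 methylation is laid down by histone methyltransferases such as Su(var)3-9, G9a and Eggless, and heterochromatin protein 1a binds the methylated tail. The mark is known for packing the repeat-rich DNA around centromeres and on the Y chromosome, and for silencing transposons there. Scaffolds of U are rich in such repeats, and their order along U says nothing about chromosomal order, so a position on U is an address and not a map location. Repeats and genes under the regions were not determined here, since no annotation of the build used by the files was at hand. For the same reason no sequence is shown. Reads from repeats can align to many places, and the treatment of such reads is not stated in the labels or headers.

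Most of U carried the mark in both libraries, but replicate 2 covered much less of it than replicate 1. The replicate 1 list had 997 regions on U over 7.41 Mb, which is 73.7% of its 10.0 Mb. The replicate 2 list had 1180 regions over 5.66 Mb, or 56.3% of U. The mean was 65.0% ± 12.3 (SD, n = 2), and the combined list, which rests on the same libraries, covered 81.7%. Replicate 2 thus cut a smaller covered length into more pieces: its median region on U measured 2897 bp, against 4443 bp for replicate 1. The combined list had a median of 6595 bp. The lists give no read counts, so the depth of the libraries is unknown, and the input libraries entered only through the authors' calling.

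The large assembled heterochromatic scaffolds of chromosome 3, 3LHet and 3RHet, differed less between replicates, whereas the small YHet, assembled from the Y chromosome, resembled U. Replicate 2 covered 0.763 times as much of U as replicate 1 did, 0.813 times as much of YHet, 0.936 times as much of 3LHet and 0.947 times as much of 3RHet. The covered share was 65.0% ± 12.3 on U, 62.2% ± 9.07 on YHet, 84.1% ± 3.91 on 3LHet and 81.0% ± 3.10 on 3RHet (SD, n = 2 for each). In both replicate lists U lay below 3LHet and 3RHet in covered share and in median region length. Its regions were more numerous per length than theirs, with 108.3 ± 12.9 per Mb on U, 56.9 ± 15.8 on 3LHet and 47.5 ± 16.0 on 3RHet. XHet with 112.7 ± 6.93 and YHet with 96.5 ± 26.5 were near U (SD, n = 2 for each). The score on U was above those on 3LHet and 3RHet, and close to that on YHet. The median score in replicate 1 was 2.38 on U, 2.04 on 3LHet, 2.19 on 3RHet and 2.41 on YHet. In replicate 2 it was 2.07 on U, 1.69 on 3LHet, 1.79 on 3RHet and 1.97 on YHet. A test over 2 libraries cannot give a two-sided exact p below 0.5, so none was run and none of these differences is called particular to U.

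**Figure D1:**
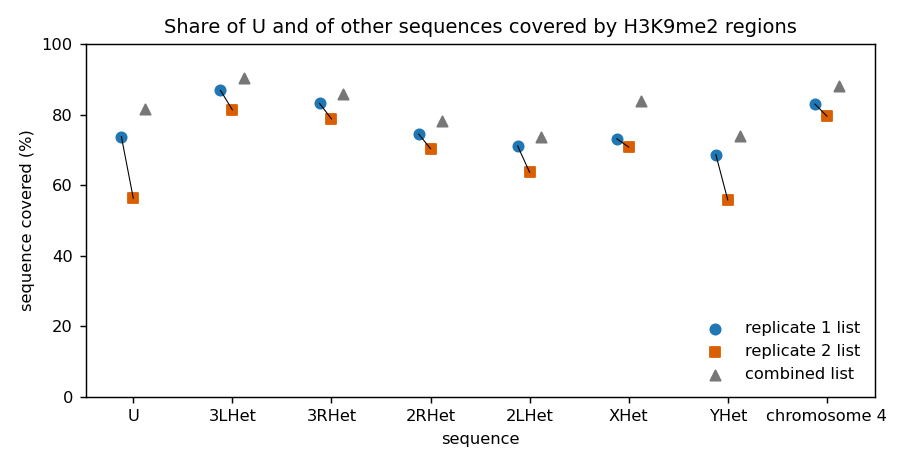
Share of each sequence covered by enriched regions (y axis, percent) in the list of replicate 1 (circles), the list of replicate 2 (squares) and the combined list (triangles); lines join the replicates. The replicates lay far apart on U, at 73.7% and 56.3%, and closer together on 3LHet, at 86.9% and 81.3%.

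Long domains on U were few, and they held between 17.3% and 44.6% of the covered bases, depending on the list. Regions of at least 20 kb, called long here, numbered 63 in replicate 1 and 29 in replicate 2, with 104 for the combined list. They made up 6.32%, 2.46% and 13.4% of the regions on U. Over all sequences the shares of regions that long were 7.58%, 4.17% and 6.02%, so a larger share of regions was long on U than overall in the combined list, and a smaller share in both replicate lists. On U the long regions carried 29.9% of the covered bases of replicate 1 and 17.3% for replicate 2, with 44.6% for the combined list. Regions under 5 kb were the most numerous kind in the replicate lists, with 555 in replicate 1 and 862 in replicate 2. They held 21.7% (replicate 1) and 39.3% (replicate 2) of the covered bases. In the combined list 311 regions were that short and held 10.6% of the bases.

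The 6 longest combined regions were found in both replicates, mostly as several pieces. The longest (U:281606-430346, 148.7 kb, score 2.27) was covered over 96.5% by 5 regions of replicate 1 and over 91.4% by 7 regions of replicate 2. The next (U:5730218-5825190, 94.97 kb, score 2.13) was covered over 99.1% by 2 regions of replicate 1 and over 87.3% by 13 regions of replicate 2. A single region of each replicate spanned U:1314324-1388842 (74.5 kb, score 1.87), with scores of 1.98 in replicate 1 and 1.63 in replicate 2. This was the only one of the 6 that stayed whole in both lists, and it was also the only one that replicate 2 covered more fully, over 99.6% against 99.2% in replicate 1. The domain U:563808-640246 (76.4 kb, score 2.20) was whole in replicate 1 and in 3 pieces in replicate 2. The domain U:460808-541896 (81.1 kb, score 1.97) was in 3 pieces in replicate 1 and 5 in replicate 2. The most broken of the 6 was U:6487554-6557466 (69.9 kb, score 2.34), with 7 regions in replicate 1 over 93.6% and 14 regions in replicate 2 over 71.1%. Across all 104 long combined regions there were 244 overlapping regions in replicate 1 and 409 in replicate 2. Borders between the scaffolds joined in U were not located, so whether a long region or a break falls on one was not tested.

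Scores of long domains lay in a narrow band, and scores of short regions spread far above and below it. In replicate 1 the scores of long regions ranged between 1.84 and 3.05 with an SD of 0.256 over 63 regions. Those of regions under 5 kb ranged between 0.288 and 5.17 with an SD of 0.672 over 555 regions. In replicate 2 the long regions ranged between 1.54 and 2.21 with an SD of 0.175 over 29 regions, and the short ones between 0.317 and 5.21 with an SD of 0.728 over 862 regions. The medians were much closer than the extremes. In replicate 1 the median score was 2.41 in regions under 5 kb and 2.25 in long regions, and in replicate 2 it was 2.15 and 1.84 in the same order. In the combined list the medians were 2.19 for both kinds. By median score, long domains of U thus lay at or below the short regions.

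**Figure D2:**
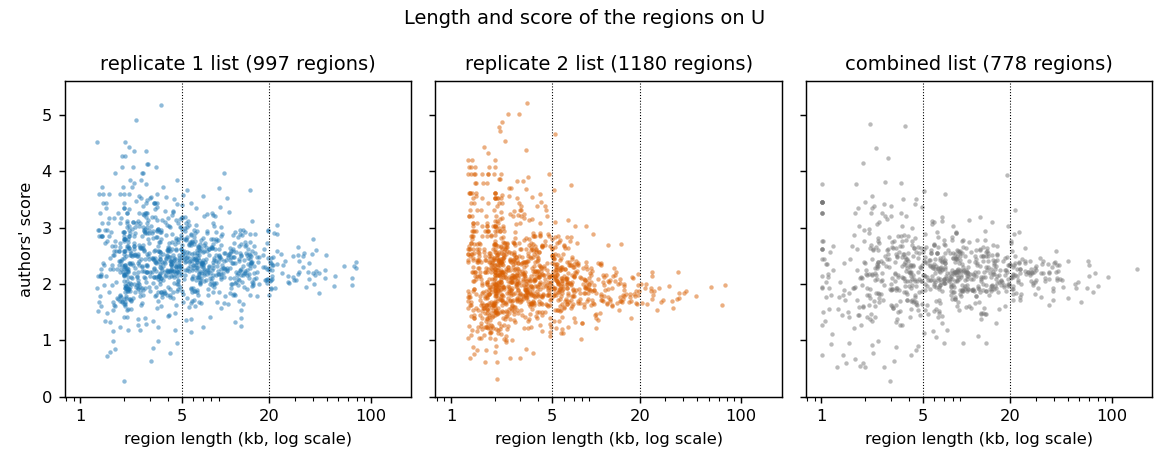
Each point is a region on U in the list of replicate 1, replicate 2 or the combined list, by its length (x axis, kb on a log scale) and the authors' score (y axis); dotted lines mark 5 kb and 20 kb. Scores fan out below 5 kb and close in on a band near 2 above 20 kb.

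Most of the strongest scores on U belonged to short regions, and few to long ones. Of the 100 regions in the top 10% of scores in replicate 1, 82 were under 5 kb and 0 were long. In replicate 2 it was 117 of 122, again with 0 long. In the combined list it was 54 of 78, with 3 long ones. Among all regions on U, 55.7% in replicate 1, 73.1% in replicate 2 and 40.0% of the combined ones were under 5 kb. These short high-score regions amounted to 223.7 kb in replicate 1 and 262.9 kb in replicate 2, with 137.9 kb for the combined list, a small part of the covered length. A score of 3 or more was reached by 13.8% of the regions on U in replicate 1 and 10.6% in replicate 2, with 7.07% for the combined list. Over all sequences the shares were 4.88%, 3.15% and 2.03%. U held 138 of the 179 such regions of replicate 1, 125 of the 149 of replicate 2 and 55 of the 114 of the combined list.

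The combined regions with the highest scores were unevenly supported by the replicates. The highest (U:9774074-9776228, 2155 bp, score 4.84), the next (U:8108188-8111926, 3739 bp, score 4.81) and the third (U:2051662-2054042, 2381 bp, score 4.40) each overlapped a region of replicate 1, scored 4.07, 4.12 and 3.35, and no region of replicate 2. The fourth (U:3170612-3173468, 2857 bp, score 4.23) was found in both, with a score of 4.35 in replicate 1 and 3.43 in replicate 2. The fifth (U:8259452-8261388, 1937 bp, score 4.15) overlapped no region of either replicate. The sixth (U:2022140-2041266, score 3.93) differed from the rest in its length of 19.1 kb. A single region of replicate 1 covered it over 77.2% with a score of 3.67. In replicate 2 it held 5 regions over 74.4%, scored between 3.32 and 4.87. At the other end, the lowest score on U belonged to a region found in both replicates (U:6557968-6560948, 2981 bp), which scored 0.288 in replicate 1 and 0.317 in replicate 2, with 0.278 for the combined list. These 3 values nearly coincide, and the region starts just beyond the end of the broken 69.9 kb domain described above.

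The scale of the score is not stated, but its values show part of it. Many regions on U shared exactly the same score: 339 of 997 in replicate 1, 541 of 1180 in replicate 2 and 139 of the 778 combined regions. In replicate 2 the commonest value, 2.21, was shared by 20 regions, and 13 regions shared 2.94, which lies above it by the base 2 logarithm of the ratio 5 to 3. A lower value, 1.62, was shared by 18 regions and lies below 2.21 by the base 2 logarithm of the ratio 3 to 2. Taken over the list, 86.8% of the replicate 2 scores and 75.6% of the replicate 1 scores on U differed from the commonest value of their list by the base 2 logarithm of a ratio of whole numbers (numerator up to 3000, denominator up to 300, relative tolerance 1e-10). The values therefore have the form of base 2 logarithms of ratios, with a step of 1 standing for a factor of 2. Which quantities form the ratio is not stated, and no read count was read from it.

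Exact repeats were concentrated in the short and the high-scoring regions. In replicate 1 the score was shared with another region on U in 54.4% of the regions under 5 kb and in 0% of the 63 long ones. In replicate 2 the shares were 57.4% and 3.45% of 29. In the combined list they were 36.3% and 0%. By score, it was shared in 61.6% of the replicate 1 regions at 3 or more and 29.6% of those below. In replicate 2 these shares were 72.8% and 42.7%, and in the combined list 41.8% and 16.0%. A whole-number ratio accounted for all 138 scores of 3 or more in replicate 1 and all 125 in replicate 2. Among scores below 3 it accounted for 71.7% in replicate 1 and 85.2% in replicate 2. In long regions it accounted for 11.1% in replicate 1 and 13.8% in replicate 2. A ratio of numbers above the limits of the search is missed, so the lower share does not show that long regions differ in form. Recurring values were thus more frequent among short regions than among long domains, although many short regions had a score of their own. The part this plays in the wide spread of short-region scores was not tested.

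Along U the enrichment changed in 3 ways. Coverage dipped in the middle, regions were shorter at the far end than at the near end, and the replicates moved apart. U was divided into 10 consecutive parts of 1 Mb, the last of them slightly longer. The combined list covered 81.9% of the first part and 87.9% of the second. Coverage then declined to 75.2%, 72.7% and 56.1% in the third to the fifth part. It recovered to 77.3% in the sixth and reached 95.5% in the seventh, and it stayed between 88.3% and 91.4% in the remaining parts. Both replicate lists had their lowest coverage in the fifth part, at 49.9% in replicate 1 and 36.1% in replicate 2.

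At the far end of U regions were shorter than at the near end in every list, and their median score was slightly higher. The median length in replicate 1 was 14885 bp in the first part, 4586 bp in the fifth and 2948 bp in the last. In replicate 2 it was 6412 bp, 3148 bp and 2094 bp in the same parts. The combined list had 19711 bp, 6087 bp and 4428 bp there, but 10339 bp in the seventh part, so its decline was uneven. Long regions in replicate 2 were found at the near end, where the first 2 parts held 19 of the 29, and the last 4 parts held 0. In replicate 1 the first 2 parts held 27 of the 63, and the last 4 held 11. In the combined list the first 2 parts held 30 of the 104 and the last 4 held 45, which per part is fewer at the far end here too, though by less. In that list the seventh and eighth parts held 17 and 15, about as many as the 13 and 17 of the first and second. The ninth and the last held 7 and 6. The median score of the 10 parts lay between 2.16 and 2.51 in replicate 1, between 1.74 and 2.21 in replicate 2 and between 2.00 and 2.29 for combined regions. In each list it was lower in the first 2 parts than in the last 4.

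**Figure D3:**
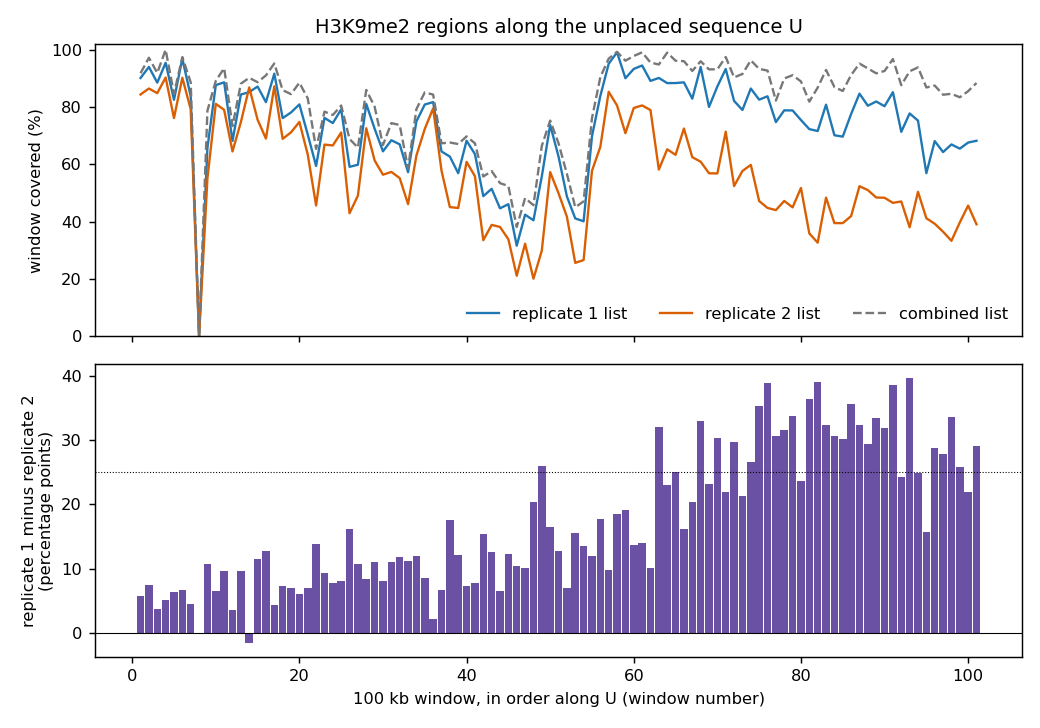
Top, share of each 100 kb window of U covered by the list of replicate 1, replicate 2 and the combined list (y axis, percent), with windows in their order along U on the x axis. Bottom, covered share in replicate 1 minus that in replicate 2 (percentage points; dotted line at 25); the lists fall to 0 together in the window that lies in the longest free stretch and part beyond window 60.

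Stretches free of regions were few and lay in the first 5.5 Mb. In no list did regions cover 1.82 Mb of U, or 18.1%, and most of this was scattered over small gaps with a median of 1089 bp. Only 9 free stretches measured 10 kb or more, and together they made up 0.226 Mb. The longest (U:695667-815857) measured 120.2 kb and was free in all 3 lists. It was bounded closely on its left, where the last region of replicate 1 ended 130 bp before it and the last of replicate 2 ended 473 bp before it. On its right the next region began 64 bp after it in replicate 1 and 2322 bp after it in replicate 2. The regions on its borders carried ordinary scores for U, namely 2.32 and 1.87 in replicate 1 and 1.88 and 2.06 in replicate 2. The window from 700001 to 800000 was the only one of 101 windows of 100 kb with less than 10% coverage in both replicates, and its coverage was 0% in all 3 lists.

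The other long free stretches were much shorter. They lay at U:1110267-1130509 (20.2 kb), U:5288257-5305783 (17.5 kb), U:430347-444517 (14.2 kb) and U:1881874-1893377 (11.5 kb). The 14.2 kb stretch directly followed the longest domain of U, and both replicates stopped within 115 bp of its left border and resumed within 473 bp of its right border. Beyond 5.5 Mb the longest stretch in no list measured 4.83 kb. Whether any of these stretches holds sequence to which reads can align was not determined, so a free stretch is not shown to lack the mark. Taken by list, gaps of 10 kb or more numbered 17 in replicate 1 and 77 in replicate 2, with 9 for the combined list. Beyond 5.5 Mb there were 32 in replicate 2 and 0 in the others, so the stretches of that size at the far end of U were those of replicate 2 alone.

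Where the replicates parted, replicate 2 was nearly contained in replicate 1. They shared 5.51 Mb of U, or 97.5% of what replicate 2 covered and 74.4% of what replicate 1 covered. The Jaccard index, bases in both over bases in either, was 0.730 on U. It was 0.788 on YHet, 0.794 on XHet, 0.922 on 3LHet, 0.930 on 3RHet and 0.762 over all sequences. On U, replicate 1 alone covered 1.90 Mb and replicate 2 alone 0.143 Mb, a ratio of 13.3. The same ratio was 15.1 on 2LHet, 14.4 on YHet, 9.76 on 3LHet, 6.84 on 3RHet and 1.57 over all sequences, so U was not the most one-sided. As a share of the sequence, replicate 1 alone held 18.9% of U, 13.8% of YHet, 9.45% of XHet and 7.96% of 2LHet. On 3LHet and 3RHet it held 6.15% and 5.14%. By regions, 1159 of 1180 in replicate 2 overlapped replicate 1 by at least 1 bp (98.2%, against 79.7% over all sequences). In the other direction 800 of 997 did (80.2%, against 81.7% over all sequences), a share near that of the whole list. An overlap of 1 bp is more easily met where the other list covers more of the sequence. Replicate 1 covered 73.7% of U and 18.5% of all sequences, and replicate 2 covered 56.3% and 17.4%. These shares of regions therefore do not compare agreement on U with agreement over all sequences.

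The gap between replicates was wider at the far end of U. Coverage in replicate 1 exceeded that in replicate 2 by 5.69 percentage points in the first part, 13.8 in the fifth, 22.7 in the seventh, 33.1 in the ninth and 28.2 in the last. The Jaccard index was 0.906 in the first part and 0.516 in the last. The share of replicate 2 bases that lay in replicate 1 stayed between 96.9% and 98.8% in the first 9 parts and was 91.0% in the last. Bases in the combined list alone made up 2.65% of the first part and 15.0% of the last. Depth, batch and mappability along U are not known from the lists, so their part in this difference was not tested.

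**Figure D4:**
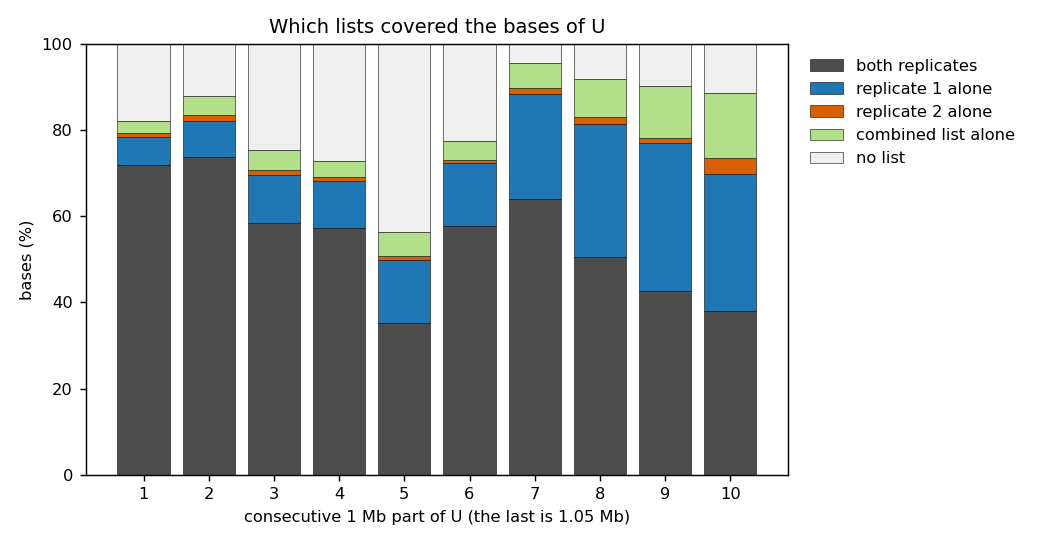
Bases of each consecutive 1 Mb part of U (x axis) by the lists that covered them (y axis, percent of the part). The share covered by both replicates was 71.9% in the first part and 37.9% in the last, and that of replicate 1 alone 6.57% and 31.9%.

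In windows of 100 kb, replicate 1 was higher in 99 of 101, replicate 2 in 1 by 1.62 points, and 1 was free in both. A difference of 50 points or more was reached by 0 windows, and one of 25 points or more by 29, of which 28 lay beyond 5 Mb. The largest difference was 39.7 points, in the window from 9200001 to 9300000, which replicate 1 covered over 77.8% and replicate 2 over 38.1%. The next 4 were the windows that start at 8100001, 7500001, 9000001 and 8000001, with 38.9, 38.9, 38.6 and 36.4 points. The median difference was 26.6 points in the windows beyond 5 Mb and 8.50 in the first 5 Mb.

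This difference was made up of many runs. The 1784 runs of bases in replicate 1 alone had a median of 632 bp, and the 330 of them that measured 2 kb or more held 51.5% of their bases. The longest measured 7.99 kb (U:7815997-7823988), a region with a score of 2.80 that replicate 2 lacked altogether. The next longest, U:9020883-9028465 (7.58 kb) and U:5849419-5856634 (7.22 kb), were parts of regions of 15.3 kb and 34.2 kb that replicate 2 covered over 24.6% and 65.8%. The run U:9563473-9570461 (6.99 kb, score 2.35) was again a whole region, and U:7616990-7623815 (6.83 kb) was the end of a 22.8 kb region with a score of 2.89. Runs in replicate 2 alone numbered 388 with a median of 152 bp. The 5 longest were all whole regions absent from replicate 1: U:6386462-6389554 (3093 bp), U:4547649-4549649 (2001 bp), U:7270998-7272996 (1999 bp), U:2039315-2041307 (1993 bp) and U:9501839-9503730 (1892 bp). Their scores were 1.45, 2.94, 4.08, 3.94 and 2.21. The first of them scored low among the replicate 2 regions on U, and the third and the fourth were among the strongest there.

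On U, regions with high scores and short regions had a partner in the other list less often than the rest, in both lists. In replicate 1, 62.3% of the 138 regions on U with a score of 3 or more overlapped replicate 2, against 83.1% of the 859 with lower scores. In replicate 2 the shares were 92.8% of 125 and 98.9% of 1055. By length, replicate 2 overlapped 65.9% of the 555 regions of replicate 1 under 5 kb and 98.2% of the 442 longer ones. Replicate 1 overlapped 97.6% of the 862 regions of replicate 2 under 5 kb and all 318 longer ones. Among regions under 5 kb alone, a partner was found for 58 of the 110 with a score of 3 or more and 308 of the 445 with lower scores in replicate 1 (52.7% and 69.2%). In replicate 2 the numbers were 109 of 118 and 732 of 744 (92.4% and 98.4%). The 197 regions of replicate 1 without a partner were 2091 bp long at the median and scored 2.51, against 5582 bp and 2.37 where there was one. The 21 of replicate 2 had 1577 bp and 2.94, against 2950 bp and 2.06. On U the unpartnered regions were therefore shorter but scored no lower than the partnered ones. A partner was any overlap of at least 1 bp, a rule that favours long regions. Its part in the difference of length was not tested. Over all sequences 81.7% of replicate 1 regions and 79.7% of replicate 2 regions had a partner. These shares were not split by score or length, so whether the same holds beyond U was not tested.

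Of the 778 combined regions on U, 583 overlapped both replicate lists, which is 74.9%, against 43.5% over all sequences. A further 100 overlapped replicate 1 alone (12.9%, against 8.69%), 14 overlapped replicate 2 alone (1.80%, against 14.6%) and 81 overlapped neither (10.4%, against 33.2%). On 3LHet 78.5% and on 3RHet 80.3% overlapped both. The regions in both replicates held 93.8% of the combined bases on U and had a median length of 8747 bp. The median was 2667 bp for those in replicate 1 alone, 2140 bp for those in replicate 2 alone and 1413 bp for those in neither. The median scores of the 4 kinds lay between 2.16 and 2.20, but the kinds differed in their high scores. A score of 3 or more was reached by 16 of the 81 regions found in neither list, 12 of the 100 in replicate 1 alone, 3 of the 14 in replicate 2 alone and 24 of the 583 in both, which is 19.8%, 12.0%, 21.4% and 4.12%.

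The kinds also differed in length, which the counting of any overlap favours: a long region has more room to meet another list, and the replicate lists cover most of U. All 104 long combined regions overlapped both lists, as did 147 of the 149 between 10 kb and 20 kb. Of the 86 regions under 2 kb, 0 overlapped both, 64 overlapped neither, 17 overlapped replicate 1 alone and 5 overlapped replicate 2 alone. The lists differ in their shortest regions on U, at 1306 bp in replicate 1 and 1301 bp in replicate 2, with 1001 bp for the combined list, so some of the combined regions were shorter than any region of a replicate list. The mean share covered by replicate 1 was 73.5% in the class between 2 kb and 5 kb and 95.2% in long regions. By replicate 2 it was 40.7% and 77.2% in the same classes.

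**Figure D5:**
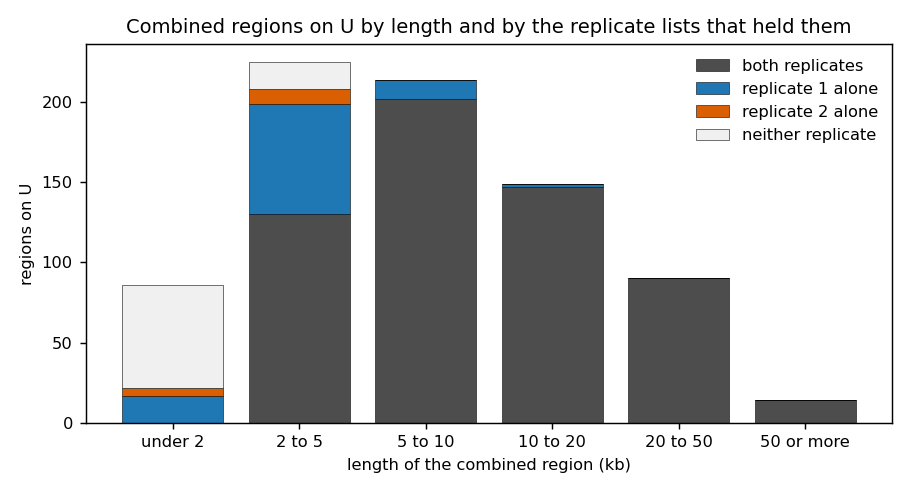
Number of combined regions on U (y axis) by length class (x axis, kb), divided by the replicate lists that they overlapped by at least 1 bp. All regions of 20 kb or more overlapped both lists, and 64 of the 86 under 2 kb overlapped neither.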

How the data were processed

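Chromatin immunoprecipitation and input DNA from larval nuclei were sequenced. Per the submitters' processing notes, Bowtie 0.12.7 did the alignment. Neither labels nor headers state the region caller, its thresholds or how the combined list was made. The authors deposited each region with its start and end, on FlyBase release 5 per the file headers, and with a score of their own, whose scale is not stated. Read counts are not used here, so depth and counting error are unknown. Regions named as depleted were set aside, and regions that ran past a sequence end were trimmed, none of them on U.

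Covered bases, gaps, overlaps and medians were computed with Python 3.11.15 and numpy 2.4.6, and the interval measures were recovered in 20 of 20 simulated pairs of lists. Replicate values are given as mean ± SD over 2 libraries, with no test. Regions named in the text are the 6 longest and the 6 highest-scoring combined regions on U, the 5 longest free stretches, the 5 longest runs in each replicate alone and the 5 windows that differed most. The lowest-scoring region was chosen after its value was seen. The members, thresholds and rules were chosen with earlier results of these data known. Alternatives were a minimum length of 2000 bp, merging within 1000 bp, the top-scoring 50% of every list, other thresholds and each replicate list alone.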

Additional observations from a re-analysis of the deposited data

How the results depend on the processing

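Of 45 alternatives run on the values for U, 32 left the value within the SD of the replicates or, for counts, within 1.5 times. For the Jaccard index the limit was an interval that took bases as independent counts, which neighbouring bases are not. For covered share, median length and median score, leaving out 1 of 2 lists cannot exceed the SD. The top-scoring 50% kept 1076.5 of 1088.5 regions, so it hardly filtered U. The tally is therefore no measure of robustness. With 2 lists, leaving out a replicate gives the other list's value: between 997 and 1180 regions, 56.3% and 73.7% covered, 29 and 63 long regions, 82 and 117 short high-score regions, and 17 and 77 free stretches. Means over the replicate lists moved as follows. Merging regions within 1000 bp gave 712 regions against 1088.5, a median length of 5766 bp against 3670.0 bp and 78 long regions against 46, since neighbours are joined. Long regions numbered 150.5 at a minimum of 10 kb and 5.5 at 50 kb. Free stretches numbered 7.5 at a minimum of 20 kb, against 47 at 10 kb. The Jaccard index of 0.730 became 0.697 with regions of at least 2000 bp, 0.729 in the top-scoring 50% of every list and 0.739 after merging. Windows that differed by 50 points or more numbered 0 under each setting run, windows of 50 kb included, whereas 29 differed by 25 points or more. Requiring that 50% of a region be covered, an alternative added after seeing the data, left 672 of the 800 partnered regions of replicate 1 and 1138 of the 1159 of replicate 2. No paired analysis was possible because inputs carry the same replicate numbers as ChIP libraries but no region list of an input is analysed here.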

Other observations

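The loss of coverage in replicate 2 towards the far end of U was also seen within length classes of combined regions from 5 kb upwards. This comparison was chosen after seeing the data. Combined regions of 20 kb or more were covered by replicate 2 over 70.0% of their bases beyond 5 Mb (56 regions) and over 89.8% in the first 5 Mb (48 regions). For regions between 10 kb and 20 kb the shares were 58.5% (86 regions) and 82.8% (63 regions), and for those between 5 kb and 10 kb they were 53.1% (128 regions) and 69.4% (86 regions). The difference was small for regions between 2 kb and 5 kb, with 40.6% (144 regions) and 46.6% (81 regions). Replicate 1 covered the same classes over 94.1% and 97.1%, 88.5% and 94.7%, 87.2% and 89.6%, and 73.8% and 76.8%, each time beyond 5 Mb first. Regions of 20 kb or more were split into 15.3 pieces per 100 kb by replicate 2 beyond 5 Mb and 7.34 in the first 5 Mb, and by replicate 1 into 9.23 and 4.28. Between 5 kb and 10 kb the pieces of replicate 2 were 18.6 and 18.3 per 100 kb. The class of 20 kb or more has no upper limit, so its regions were not matched for length. Most of the 6 longest combined regions lay in the first 5 Mb. On average, replicate 2 covered 75.4% of a combined region between 20 kb and 50 kb and 89.1% of a longer one. The part of length in the contrasts for that class was not tested.

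Borders of shared regions lay further in for replicate 2. At 1600 borders of the 800 partnered regions of replicate 1, replicate 2 stopped inside the region at 73.4%, with a median inset of 243.5 bp, and the borders lay within 200 bp of each other at 32.5%. Of these 800 regions, 267 held at least 2 regions of replicate 2, and the most divided held 12. The reverse, a replicate 2 region that overlapped at least 2 regions of replicate 1, was found 57 times.

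Only 3 long combined regions on U were in the top 10% of its scores. They were U:2727738-2749164 (score 3.31), U:4219972-4243004 (score 2.93) and U:8140902-8161986 (score 2.89), and both replicates covered each of them, replicate 1 over 94.8%, 97.8% and 73.9% and replicate 2 over 55.6%, 84.9% and 48.5%. They were picked out after their values were seen.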
